A study of Mus musculus with 6 samples.

Results

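The histone cluster genes are the genes whose symbol begins with Hist1h, Hist2h, Hist3h or Hist4h. Matching that pattern to the gene symbols of an mm9 annotation found 70 such genes among the 37620 genes of the count tables, and all 70 are accounted for here. By histone type they were 6 linker histone H1 genes, 20 H2A, 19 H2B, 12 H3 and 13 H4 genes. The Hist1 cluster on chromosome 13 held 56 of them, the Hist2 cluster on chromosome 3 held 10, the Hist3 cluster on chromosome 11 held 3 and the Hist4 locus on chromosome 6 held 1. The annotation calls 3 of them pseudogenes (Hist1h2aj, Hist2h3c2 and Hist3h2bb-ps). RNA was measured in wild-type neural progenitor cells (NPC) made in culture from the mouse J1 embryonic stem cell line, in J1-derived cells labelled Phc1-/- (Phc1-KO), and in wild-type J1 embryonic stem cells (ESC), with 2 libraries of each. Phc1 codes for a subunit of Polycomb repressive complex 1. The labels place ESC culture on mitomycin-C inactivated mouse fibroblast feeders in LIF and serum, with feeder cells depleted before use, and all groups share the J1 background. The title of the series calls the Phc1-KO cells ESC while their cell type entry reads NPC, and the labels do not say how the allele was made or whether the line is 1 clone.

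Replication-dependent histone genes supply the histones that package newly made DNA, so their RNA is made mainly in S phase. Their RNAs end in a short stem-loop in place of a poly(A) tail; stem-loop binding protein holds that hairpin, and the U7 small nuclear ribonucleoprotein helps to cut the RNA just after it. Because these RNAs lack the tail, poly(A) selection largely loses them. The libraries here were total RNA depleted of ribosomal RNA with a Ribo-Zero Gold kit, so such RNAs could be counted. Core histones H2A, H2B, H3 and H4 form the nucleosome, and linker H1 binds where DNA enters and leaves it.

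The stem-loop is shown first, since it sets these RNAs apart from polyadenylated ones. A search of each gene and the next 200 bases of the mm9 genome, on the gene's strand, found the 16-base histone stem-loop core for 66 of the 70 genes, in 8 forms. In the other 22270 protein-coding genes, searched over their last 800 bases and the next 200, 12 held one (0.0539%). Each line below gives the core in capitals, with 5 bases of flank on either side in lower case, 5′ to 3′ on the gene's strand. The cores below cover all 8 forms, and the genes were picked as examples of each.
Hist1h1c: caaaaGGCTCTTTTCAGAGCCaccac
Hist1h1t: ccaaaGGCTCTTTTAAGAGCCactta
Hist1h3g: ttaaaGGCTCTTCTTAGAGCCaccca
Hist2h2ac: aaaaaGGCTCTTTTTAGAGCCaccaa
Hist1h4d: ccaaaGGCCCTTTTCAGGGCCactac
Hist1h4a: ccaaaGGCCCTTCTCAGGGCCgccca
Hist1h4b: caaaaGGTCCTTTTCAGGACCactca
Hist2h4: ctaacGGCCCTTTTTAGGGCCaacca

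In mm9 these windows lie at chr13:23831376-23831401, plus strand (Hist1h1c), chr13:23788389-23788414, plus strand (Hist1h1t), chr13:23627753-23627778, plus strand (Hist1h3g) and chr3:96024336-96024361, minus strand (Hist2h2ac). The H4 windows lie at chr13:23673814-23673839, plus strand (Hist1h4d), chr13:23852664-23852689, minus strand (Hist1h4a), chr13:23849230-23849255, plus strand (Hist1h4b) and chr3:96066857-96066882, minus strand (Hist2h4). The stem split the genes by type. All 13 H4 genes began the core with GGCCC or GGTCC, whereas all 53 matched genes of the other types began it with GGCTC. The form shown for Hist1h1c was the most common, in 42 genes. The 4 genes with no match were Hist1h2aj, Hist1h2al, Hist1h2an and Hist2h2be. The human counterparts of Hist2h2be and Hist1h2bc are known to make polyadenylated RNA as well, and Hist1h2bc did have a core.

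Promoters were compared over 300 bases, from 250 before to 50 after each start, in the RefSeq table for build GRCm38.p6, which matched 61 of the 70 genes. Motifs were searched on both strands, and a match describes letters only. The letters CCAAT occurred in all 6 H1, 17 H2A, 16 H2B and 10 H3 promoters matched but in 3 of 12 H4 promoters, against 37.4% of the 32851 promoters of the table. The octamer ATTTGCAT, which Oct factors bind, occurred in 7 of 17 H2A and 6 of 16 H2B promoters and in 0 of the other types, against 1.74% of all. Windows of head-to-head H2A and H2B genes overlap, so 1 match can count for both types, for the other motifs too. The same octamer lay in the windows of Hist1h2aa and Hist1h2ba, of Hist1h2ae and Hist1h2bg, and of Hist1h2ah and Hist1h2bk. AAACACA, known as a linker histone promoter element, occurred in 5 of 6 H1 promoters against 7.18% of all. TATAAA occurred in 35 of 61 against 13.6% of all. No promoter of the 61 held overlapping matches of different motifs. Below are the promoters of Hist1h1c, as an H1 example, of Hist1h2aa, the gene with the lowest fitted NPC value, and of Hist1h4b, the gene called higher in Phc1-KO, with motif matches on either strand in capitals.
Hist1h1c: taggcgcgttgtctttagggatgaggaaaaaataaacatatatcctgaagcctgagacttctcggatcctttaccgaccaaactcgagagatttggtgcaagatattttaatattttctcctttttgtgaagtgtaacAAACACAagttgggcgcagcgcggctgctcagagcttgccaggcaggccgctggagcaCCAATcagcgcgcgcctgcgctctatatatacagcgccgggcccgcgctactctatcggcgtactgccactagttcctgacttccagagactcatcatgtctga
Hist1h2aa: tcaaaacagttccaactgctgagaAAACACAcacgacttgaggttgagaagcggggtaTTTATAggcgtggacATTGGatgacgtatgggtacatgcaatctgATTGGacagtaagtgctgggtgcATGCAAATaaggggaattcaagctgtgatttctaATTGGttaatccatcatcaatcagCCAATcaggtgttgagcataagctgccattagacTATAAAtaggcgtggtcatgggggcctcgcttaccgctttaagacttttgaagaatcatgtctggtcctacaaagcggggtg
Hist1h4b: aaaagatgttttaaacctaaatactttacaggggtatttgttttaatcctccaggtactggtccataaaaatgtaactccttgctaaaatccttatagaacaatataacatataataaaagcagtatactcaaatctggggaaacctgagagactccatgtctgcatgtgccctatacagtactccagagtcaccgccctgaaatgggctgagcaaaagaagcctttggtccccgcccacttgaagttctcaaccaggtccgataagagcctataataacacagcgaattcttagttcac

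These windows are chr13:23738557-23738856, plus strand, chr13:23934187-23934486, plus strand and chr13:23756687-23756986, plus strand, all in GRCm38.p6. The Hist1h4b window held 0 of the 4 motifs, and the Hist1h2aa window held all 4. The Hist1h2aa window overlaps the promoter window of Hist1h2ba, which runs the other way.

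Counts given to genes were 15226214 and 15336155 in NPC, 19224273 and 21893821 in Phc1-KO, and 15766448 and 16018670 in ESC. The histone cluster genes took 0.378% and 0.438% of these counts in NPC, 0.935% and 1.38% in Phc1-KO, and 1.04% and 1.1% in ESC. Phc1 itself was at 40.8 and 34.6 CPM (CPM, counts scaled by TMM-adjusted library size) in NPC, 326.3 and 267.5 CPM in Phc1-KO, and 459.7 and 460.5 CPM in ESC, so the libraries labelled Phc1-KO still held reads of the gene. The deleted part is not given, so this count does not check the deletion. Of the 10 pluripotency markers, 5 had under 10 counts in both NPC libraries and passed the low-count filter only through the other groups. The other 5 were all lower in NPC, against 30.9% of all tested genes. Progenitor markers were higher in NPC for 9 of 10, against 30.4% of all tested genes. In the Phc1-KO group 1 of 10 pluripotency markers was higher (Fgf4) and 2 were lower (Nanog and Dppa3). Of all tested genes 4.91% were higher and 5.75% lower there. The pluripotency markers summed to 2288 and 2743 CPM in Phc1-KO, against 2401 and 2402 CPM in ESC. The spread beyond counting was 27.5% within the NPC pair, 18.1% within the Phc1-KO pair and 1.98% within the ESC pair. The labels call the libraries biological replicates but do not say that they came from separate cultures, so p-values measure only the spread between these libraries. For the histone cluster genes, the effect of leaving out single libraries on Phc1-KO medians, splits and named calls is given below. The Phc1-KO calls of other listed genes, here and below, were not checked in this way.

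Many of these genes share near-identical sequence, which limits how far their reads can be assigned. Reads were 50 bases long and those mapping to several places were tallied apart by the authors, at 34.4% to 46.8% of tallied reads per library. For each gene the share of 50-base stretches touching its exons that occur once in mm9 was counted. The median over the 70 genes was 60.5%, and 42 genes had at least 50% of such stretches. By type the median was 97.7% for H1, 43.9% for H2A, 61.2% for H2B, 45.9% for H3 and 66% for H4. Hist1h2ao, Hist1h2ap, Hist1h2bq and Hist1h2br had 0% and at most 2 counts over all 6 libraries. Hist2h2aa1 and Hist2h2aa2, a pair of near-identical copies with 4.47% each, had 0 counts in every library. Hist2h3b (34.8%) and Hist2h3c1 (43.4%) also had 0 counts, and Hist2h3c1 overlaps Hist2h2aa1 in the annotation. Hist2h2bb consists wholly of unique stretches, yet had too few counts to test, with a mean of 0.483 CPM over the 6 libraries.

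**Figure D1:**
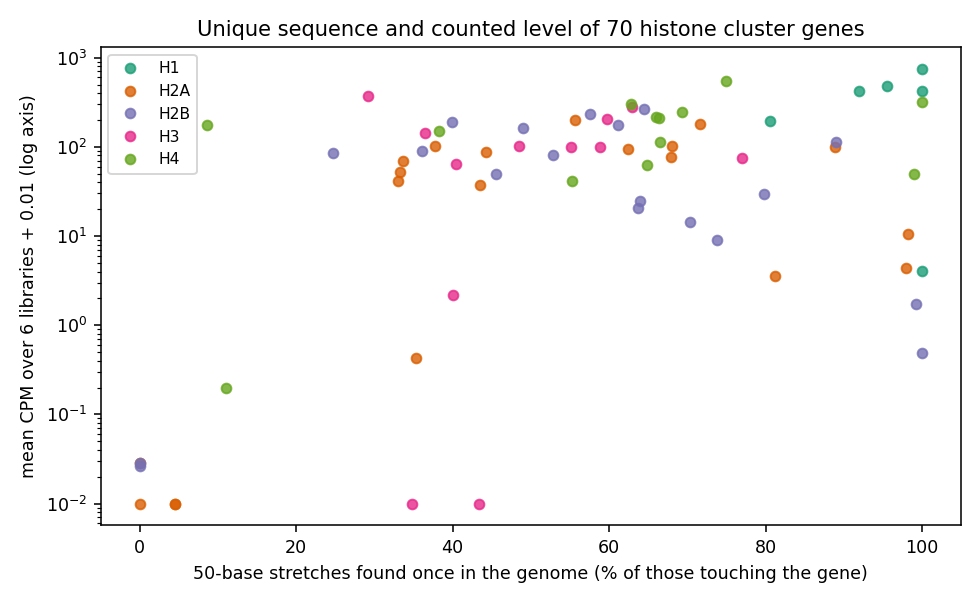
Share of 50-base stretches found once in the genome (x axis, percent) against the mean CPM over the 6 libraries plus 0.01 (y axis, log scale) for the 70 histone cluster genes, 1 point per gene, coloured by type. The 4 genes with 0% of such stretches sit at the bottom left, and Hist1h4n is far above them at 8.56%.

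Hist1h4n and Hist1h4m are neighbours in the Hist1 cluster and share most of their sequence, yet differed in level. Hist1h4n, with 8.56% unique stretches, was at 78.7 and 85.1 CPM in NPC, 152 and 262 CPM in Phc1-KO and 229.8 and 244 CPM in ESC. Hist1h4m, with 11.1%, had 0 and 0 counts in NPC, 2 and 6 in Phc1-KO and 6 and 6 in ESC. Taking 3 counts over the NPC group as the floor, its ESC-to-NPC ratio was 3.75. That value leaves out the counting error of the ESC counts, so it is not a lower bound. Since reads with several places were tallied apart, the levels of such near-identical genes are uncertain. Among the 60 genes with enough counts to test, 41 had at least 50% unique stretches. NPC levels were called lower than ESC levels for 37 of those 41 and for 18 of the 19 others, with median log2 fold changes of -1.51 and -1.53. These counts include Hist1h1t, Hist1h2aa and Hist1h2aj, which had under 10 counts in both NPC libraries.

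The order of levels was read per length, in RPKM over annotated exons, as the mean of the 6 libraries. The linker genes Hist1h1a (997 RPKM) and Hist1h1b (565 RPKM) and the H4 genes Hist1h4d (1376 RPKM) and Hist4h4 (1017 RPKM) led their types. Hist1h4d was first of all 70. Per 1000 unique stretches in place of length Hist1h4n was first and Hist1h4d second, so the order depends on that scale. Hist1h4n was 11th by RPKM, and Hist1h1b was 6th by RPKM and 20th by unique stretches.

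Setting NPC against ESC asks how histone cluster RNA differs between a progenitor and the stem cell it was made from. Nearly every testable gene was lower in NPC. Of the 60 tested, 55 fell and 0 rose by edgeR's quasi-likelihood test with Benjamini-Hochberg adjustment over all 17489 genes tested. At an unadjusted p under 0.05 the count higher was also 0, as it was by DESeq2 and limma-voom. Among all genes tested 30.9% were lower and 30.4% higher. The median log2 fold change was -1.51 for the histone cluster genes and -0.01 for all tested genes. Both NPC libraries lay below both ESC libraries for 58 of the 60, against 43.4% of all genes. Hist1h1t, Hist1h2aa and Hist1h2aj had under 10 counts in both NPC libraries and passed the low-count filter only through the other groups. Without these 3, 52 of 57 fell and 0 rose, with a median of -1.49. In bulk RNA, fewer cells of a type and less RNA per cell cannot be told apart.

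Summed over the 70 genes, the level was 3782 and 4360.5 CPM in NPC, 9417 and 14653 CPM in Phc1-KO and 10156 and 10738 CPM in ESC. The NPC libraries lay far below both other groups, and the ESC libraries lay between the Phc1-KO libraries. By type, H1 summed to 1202 ± 152 CPM in NPC, 2876 ± 554 in Phc1-KO and 2718 ± 19.6 in ESC (SD, n = 2 each here and below). H2A summed to 499 ± 39.2, 1537 ± 401 and 1457 ± 90.4 CPM in the same order of groups, and H2B to 599.9 ± 53.1, 2234 ± 685 and 1823 ± 112 CPM. H3 summed to 583 ± 38.2, 2006 ± 601 and 1723 ± 59.7 CPM, and H4 to 1188 ± 127, 3382 ± 1462 and 2725 ± 130.1 CPM. The log2 ratio of NPC over ESC was -1.18 for H1 and -1.20 for H4, against -1.55 for H2A, -1.60 for H2B and -1.56 for H3. H1 thus made up 28.9 and 30.0% of histone cluster CPM in NPC, against 26.6 and 25.4% in ESC, and H4 29 and 29.3% against 25.9 and 26.2%. With 2 libraries against 2, an exact permutation test of such a sum cannot give p below 0.333, so no p is given for sums and shares.

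**Figure D2:**
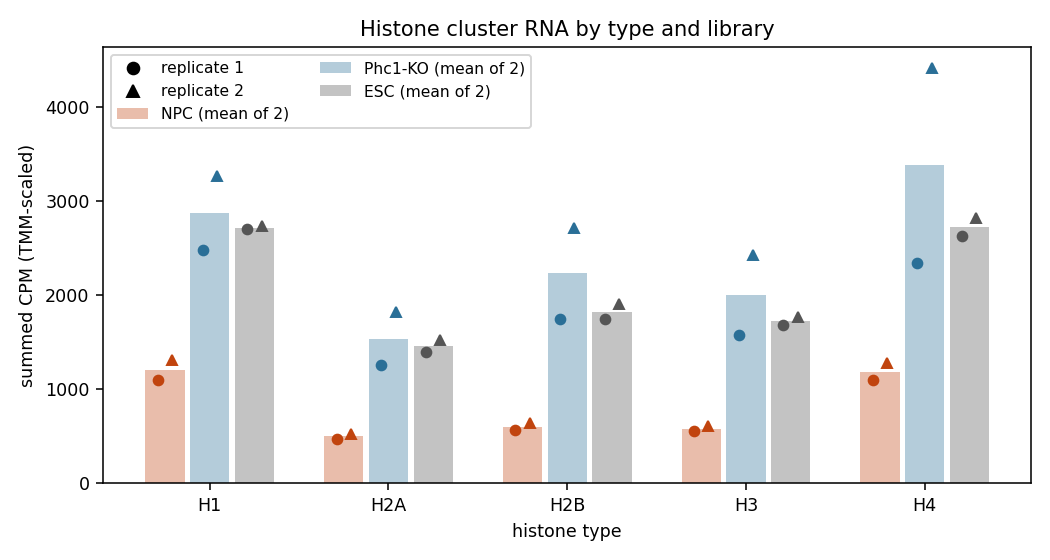
Summed TMM-scaled CPM (y axis) of the genes of each histone type (x axis) in NPC, Phc1-KO and ESC. Bars are the means of 2 libraries, circles replicate 1 and triangles replicate 2. NPC bars are the lowest in each type, and the Phc1-KO libraries lie on either side of the ESC pair in every type but H2B, where Phc1-KO 1 is just above ESC 1.

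The 5 linker histone genes with at least 10 counts in NPC all fell there. Hist1h1a, the linker gene with the highest level, was at 252 and 307 CPM in NPC, 855 and 1273 CPM in Phc1-KO and 884 and 896 CPM in ESC. Its log2 fold change in NPC was -1.67 (SE 0.21), with an edgeR adjusted p = 5.50e-04. Hist1h1b was at 177 and 235 CPM in NPC, against 452 and 464 CPM in ESC and fell by 1.15 on the log2 scale, and Hist1h1d fell by 1.04. In all 3 genes both NPC libraries were below both ESC libraries. Hist1h1c was at 258 and 291 CPM in NPC, 397 and 496 CPM in Phc1-KO and 559 and 550.5 CPM in ESC, with a log2 fold change of -1.01 (SE 0.15) in NPC. Hist1h1e, the least changed, was at 160.5 and 165 CPM in NPC, against 241 and 229 CPM in ESC, a log2 fold change of -0.53 (SE 0.11) with an edgeR adjusted p = 0.00567. That call was lost without ESC 1 or without ESC 2.

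The make-up of linker RNA therefore differed between groups. Hist1h1a was 23 and 23.5% of linker CPM in NPC, 34.4 and 39% in Phc1-KO and 32.7 and 32.8% in ESC. Hist1h1e was 14.7 and 12.6% in NPC, 7.54 and 5.80% in Phc1-KO and 8.90 and 8.38% in ESC. Hist1h1c was 23.6 and 22.2% in NPC, 16 and 15.2% in Phc1-KO and 20.7 and 20.1% in ESC. Hist1h1d was 22.5 and 23.8% in NPC, 19.8 and 20.2% in Phc1-KO and 20.8 and 21.5% in ESC. For Hist1h1d and the 3 genes above, the groups did not overlap. Their Phc1-KO shares lay on the far side of ESC from the NPC shares. For Hist1h1b and Hist1h1t some groups overlapped. Among all tested genes, levels in both NPC libraries were below both ESC libraries for 43.4% and above for 41.8%. For Phc1-KO these were 34.2% and 32.6%, so such separation is common. Shares within a library are parts of a whole, so the moves of these genes are not independent. Hist1h1a, Hist1h1b and Hist1h1t consist wholly of unique stretches, and the other linker genes have 80.6% to 95.5%. These shares are of CPM and are not corrected for length.

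**Figure D3:**
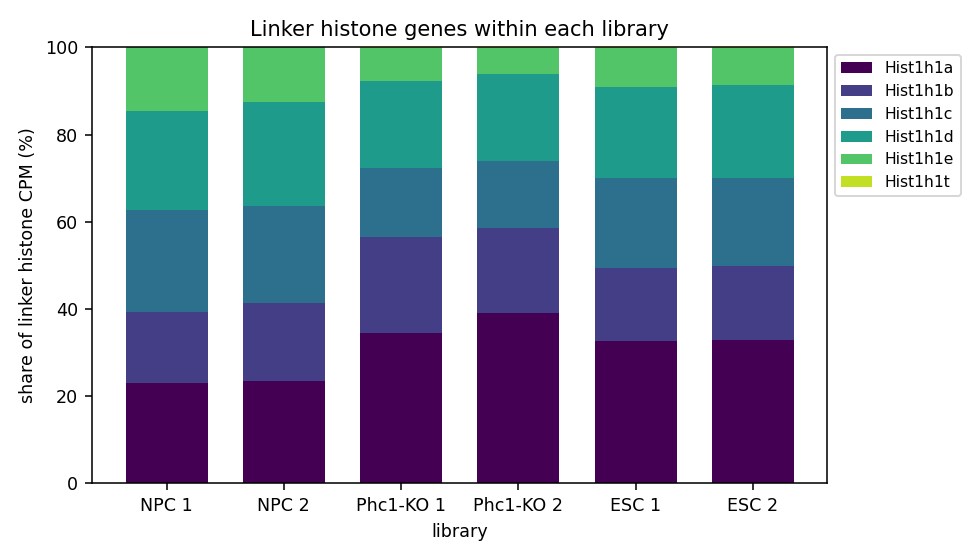
Share of linker histone CPM (y axis, percent) held by each of the 6 H1 genes in each library (x axis), stacked to 100%. The Hist1h1a segment is smallest and the Hist1h1e segment largest in NPC, and Hist1h1t is too small to be seen.

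The testis linker gene Hist1h1t (ENSMUSG00000036211; chr13:23787680-23788588, plus strand) stood apart from the other H1 genes. It had 1 and 2 counts in NPC, 106 and 147 in Phc1-KO and 99 and 89 in ESC. The ESC-to-NPC ratio was 58.7 (95% counting interval 19.8 to 287). Hist1h2aa (ENSMUSG00000060081; chr13:24026331-24026720, plus strand), the testis H2A gene, had 0 and 2 counts in NPC, 278 and 587 in Phc1-KO and 157 and 167 in ESC. Its ESC-to-NPC ratio was 152 (95% counting interval 41.7 to 1259). Both genes were close to 0 in NPC and present in the other 4 libraries. The fitted log2 fold changes, -5.78 and -7.10, depend on the prior count at such low counts. Both genes passed the low-count filter only through the groups where they are high, so no p is given for them in NPC.

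Hist1h2ba (ENSMUSG00000050799; chr13:24025637-24026025, minus strand), the testis H2B gene, starts 305 bases from Hist1h2aa on the other strand. It was at 4.47 and 5.65 CPM in NPC, 13.4 and 26 CPM in Phc1-KO and 16.8 and 19.2 CPM in ESC, and its log2 fold change in NPC was -1.83 (SE 0.34), near the median of the H2B genes. The fitted log2 fold changes of these neighbours in NPC lay 5.27 apart, the largest gap among the 12 head-to-head pairs with both genes tested. Markers of germ cells were also near 0 in NPC. A list of 12 such markers summed to 1.45 and 0.974 CPM in NPC, 38.8 and 38.3 CPM in Phc1-KO and 39.8 and 41.1 CPM in ESC. The 6 that could be tested passed the low-count filter only through Phc1-KO and ESC, so their calls in NPC are not counted. The sperm protamine genes Prm1 and Prm2 were at 0 to 0.13 CPM and Tnp1 had 0 counts in every library. The part of germ cell markers in the level of these 3 histone genes was not tested.

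The H2A genes fell in NPC for 14 of 16 tested, with a median log2 fold change of -1.64. Hist1h2aa and Hist1h2aj are among the 14, but they passed the low-count filter only through the other groups, so their fall does not add to the count. Hist1h2ab, the highest H2A gene per length, was at 99.2 and 98.3 CPM in NPC, against 246 and 255 CPM in ESC, a log2 fold change of -1.34 (SE 0.17). Hist1h2af fell by 1.41 and Hist2h2ac by 0.73 on the log2 scale, and the Hist2h2ac call was lost without ESC 1, ESC 2 or NPC 1. Apart from Hist1h2aa, the largest fall was in Hist1h2ak, at 22.5 and 19.6 CPM in NPC, against 137 and 141 CPM in ESC, a log2 fold change of -2.72 (SE 0.21) with an edgeR adjusted p = 7.32e-05. The 2 genes that did not pass were Hist2h2ab, whose exons lie wholly within the antisense gene Gm15444, and Hist3h2a.

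The H2B genes fell for 15 of 16, with a median of -1.63. Hist1h2bb, the highest per length, was at 90.8 and 108 CPM in NPC, against 318 and 369 CPM in ESC, a log2 fold change of -1.79 (SE 0.23). Hist1h2bg fell by 1.71, Hist1h2bk by 1.95 and Hist1h2bc by 1.34 on the log2 scale. The largest fall was in Hist1h2bp, at 5.46 and 4.94 CPM in NPC, against 24.3 and 26.6 CPM in ESC, a log2 fold change of -2.29 (SE 0.41). Hist2h2be did not pass: it was at 2.04 and 1.43 CPM in NPC, 1.57 and 1.55 CPM in Phc1-KO and 1.97 and 1.64 CPM in ESC, with a log2 fold change of -0.06 in NPC (95% interval -0.82 to 0.70). Its NPC and ESC libraries overlapped, the only tested gene for which they did, and it is among the 4 genes with no stem-loop match.

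Of the H3 genes 9 of 10 fell, with a median of -1.58. Hist1h3e, the highest per length, was at 134 and 178 CPM in NPC, against 431 and 429 CPM in ESC, a log2 fold change of -1.46 (SE 0.21), with 29.2% unique stretches. Hist1h3d fell most, at 25.3 and 24.5 CPM in NPC, against 107 and 118 CPM in ESC, a log2 fold change of -2.17 (SE 0.15) and an edgeR adjusted p = 4.90e-05. Hist1h3c fell by 1.73 and Hist1h3h by 1.73. The H3 gene that did not pass was the pseudogene Hist2h3c2, at 1.71 and 0.909 CPM in NPC, against 3.21 and 2.13 CPM in ESC.

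The H4 genes fell for 11 of 12, with a median of -1.48. Hist1h4d was at 309 and 343 CPM in NPC, against 589.7 and 601 CPM in ESC, a log2 fold change of -0.87 (SE 0.22). Hist1h4h fell by 1.31, and Hist1h4i, the largest fall, was at 30.3 and 32 CPM in NPC, against 134 and 157 CPM in ESC, a log2 fold change of -2.22 (SE 0.32). Hist1h4c did not pass, at 116 and 137 CPM in NPC, against 206 and 227 CPM in ESC, a log2 fold change of -0.77 (SE 0.30) and an edgeR adjusted p = 0.0597. Both its NPC libraries were still below both ESC libraries.

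**Figure D4:**
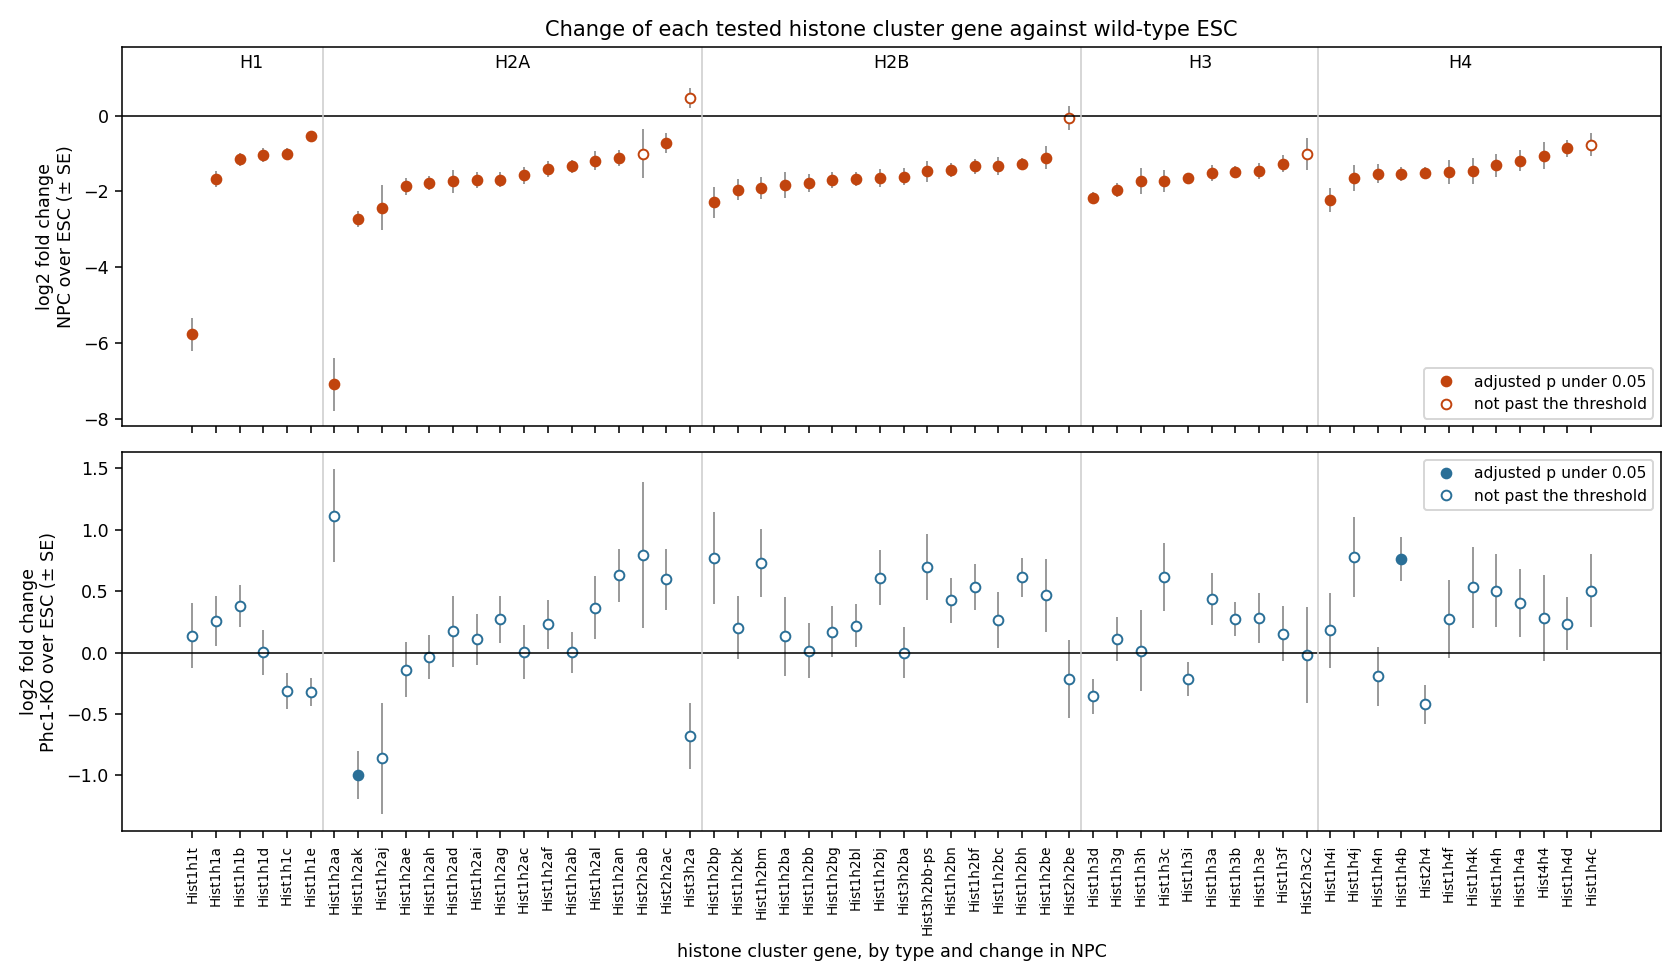
Log2 fold change against ESC of the 60 tested genes, in NPC (top) and Phc1-KO (bottom; the vertical scales differ), grouped by type. Bars are SE, filled points have an edgeR adjusted p under 0.05 and open points do not. In NPC 55 filled points lie below 0, and in Phc1-KO 2 points are filled, Hist1h2ak below 0 and Hist1h4b above.

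The clusters are given in turn, beside 30.9% of all tested genes lower in NPC. In the Hist1 cluster 50 of 51 tested genes fell, with a median of -1.57. Hist1h1t, Hist1h2aa and Hist1h2aj, which passed the low-count filter only through the other groups, are counted here and in the runs below. The Hist1 genes form 5 runs separated by more than 100 kb, of 19, 5, 29, 2 and 1 genes. The medians were -1.66, -1.78 and -1.46 in the first 3 runs, with 14 of 14, 5 of 5 and 28 of 29 genes lower. Hist1h2al, the lone gene, lies at chr13:51298057-51298434, far from the others, and fell by 1.19. In the Hist2 cluster 2 of 5 tested genes fell, Hist2h4 by 1.51 and Hist2h2ac, and 5 of its 10 genes had too few counts to test.

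The Hist3 cluster held genes that went both ways in value. Hist3h2ba (ENSMUSG00000056895; chr11:58762413-58763032, plus strand) was at 14.9 and 10.1 CPM in NPC, against 39.2 and 36.7 CPM in ESC and fell by 1.61 (edgeR adjusted p = 7.31e-04), and the pseudogene Hist3h2bb-ps fell by 1.47. Hist3h2a (ENSMUSG00000078851; chr11:58768187-58770176, plus strand) was at 5.13 and 6.75 CPM in NPC, 2.72 and 2.66 CPM in Phc1-KO and 4.56 and 4.08 CPM in ESC. It was the only tested gene with both NPC libraries above both ESC libraries, but its log2 fold change of 0.46 (95% interval -0.16 to 1.07) did not pass, with an edgeR adjusted p = 0.164. Without NPC 1 it passed. Trim17 covers 35.6% of its exons on the same strand, so its reads are uncertain. Hist4h4 (ENSMUSG00000068851; chr6:136752589-136752900, minus strand), the only gene of its cluster, was at 136 and 204 CPM in NPC, 274 and 584 CPM in Phc1-KO and 339 and 367 CPM in ESC. Its log2 fold change in NPC was -1.05 (SE 0.35), with an edgeR adjusted p = 0.0347, and the call was lost without ESC 1, ESC 2 or NPC 1. Hist4h4 consists wholly of unique stretches.

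Many H2A and H2B genes lie head to head, sharing the sequence between their starts. There were 14 neighbouring pairs on opposite strands with starts within 1000 bases, 13 of them an H2A and an H2B gene, with 167 to 692 bases between the genes. In the 12 pairs with both genes tested, the log2 fold changes in NPC differed by a median of 0.31, and by less than 0.5 in 7. The quartiles over all 60 tested genes were -1.73 and -1.19, so unpaired genes also lay close together. Whether paired genes lie closer than unpaired ones was not tested. The H2A and H2B pair closest in log2 fold change was Hist1h2bl and Hist1h2ai, which fell by 1.66 and 1.70. After Hist1h2ba and Hist1h2aa the largest gaps were in Hist3h2bb-ps and Hist3h2a (1.93), Hist1h2ak and Hist1h2bn (1.28) and Hist1h2an and Hist1h2bp (1.17).

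Setting Phc1-KO against ESC asks how histone cluster RNA differs in cells labelled as lacking this Polycomb subunit. Here 1 of the 60 tested genes rose and 1 fell by edgeR, against 4.91% of all tested genes higher and 5.75% lower. Calls this few do not set the histone cluster genes apart from that background. The all-gene shares also fell with the ESC pair counted as 1 library. An unadjusted p under 0.05 was found for 15 of the 60 histone cluster genes. Log2 fold changes were positive for 46 and negative for 14, with a median of 0.23 and a range of -0.99 to 1.11, and the median over all tested genes was 0.00. The split was 51 positive and 9 negative without Phc1-KO 1, and 17 positive and 44 negative without Phc1-KO 2. Both Phc1-KO libraries lay above both ESC libraries for 15 genes and below them for 9, against 32.6% and 34.2% of all genes, and the groups overlapped for 36.

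Hist1h4b (ENSMUSG00000069266; chr13:23848806-23849296, plus strand) was the gene that rose. It was at 90.9 and 120.4 CPM in Phc1-KO, against 56.6 and 68.1 CPM in ESC, a log2 fold change of 0.76 (SE 0.18) with an edgeR adjusted p = 0.0416. The gene 4930558J22Rik covers 60.9% of its exons on the other strand, and the strand setting of the counting is not given, so reads of both genes cannot be told apart. Hist1h2ak (ENSMUSG00000063021; chr13:21845264-21845776, minus strand) was the gene that fell, at 82.7 and 56.7 CPM in Phc1-KO, against 137 and 141 CPM in ESC, a log2 fold change of -0.99 (SE 0.19) with an edgeR adjusted p = 0.0260. Both genes had Phc1-KO libraries clear of the ESC libraries, but either call was lost without ESC 1, ESC 2 or Phc1-KO 2, and with the ESC pair counted as 1 library. The Hist1h4b call was also lost without a low-count filter. Hist1h2ak also fell in NPC. The comparisons share the ESC libraries, and its NPC and Phc1-KO values were 22.5 and 19.6 CPM and 82.7 and 56.7 CPM.

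The largest positive value that did not pass was that of the testis gene Hist1h2aa, at 14.6 and 28.4 CPM in Phc1-KO, against 9.68 and 10.2 CPM in ESC, with a log2 fold change of 1.11 (95% interval 0.22 to 2.01) and an edgeR adjusted p = 0.105. Hist1h1t was at 5.55 and 7.11 CPM in Phc1-KO, against 6.11 and 5.41 CPM in ESC, and Hist1h2ba at 13.4 and 26 CPM in Phc1-KO, against 16.8 and 19.2 CPM in ESC. For the linker genes Hist1h1c and Hist1h1e both Phc1-KO libraries lay below both ESC libraries, with log2 fold changes of -0.31 (95% interval -0.66 to 0.04) and -0.32 (95% interval -0.59 to -0.05), and neither passed. Hist1h1b was at 547 and 643 CPM in Phc1-KO, against 452 and 464 CPM in ESC, with a log2 fold change of 0.38 (95% interval -0.02 to 0.78). Hist3h2a was at 2.72 and 2.66 CPM in Phc1-KO, against 4.56 and 4.08 CPM in ESC, and Hist4h4 at 274 and 584 CPM in Phc1-KO, against 339 and 367 CPM in ESC. For Hist4h4 the ESC libraries lay between the Phc1-KO libraries.

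The Phc1-KO libraries differed from each other in nearly every histone cluster gene. On the log2(CPM + 0.5) scale Phc1-KO 2 was above Phc1-KO 1 for 56 of the 60 genes, with a median difference of 0.60, whereas over all tested genes the median was 0.02 and 51.6% were higher in Phc1-KO 2. By type the median was 0.33 for H1, 0.60 for H2A, 0.58 for H2B, 0.50 for H3 and 1.02 for H4. The 4 genes lower in Phc1-KO 2 were Hist1h2ak, Hist1h3d, Hist3h2a and Hist2h2be, at -0.54, -0.25, -0.03 and -0.02. Among H4 genes Hist2h4 differed by 0.02 and Hist1h4b by 0.40, while the other 10 differed by 0.67 to 1.09. Replicate 2 was also higher for 45 of 60 genes in the NPC pair (median 0.15) and for 46 of 60 in the ESC pair (median 0.08).

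**Figure D5:**
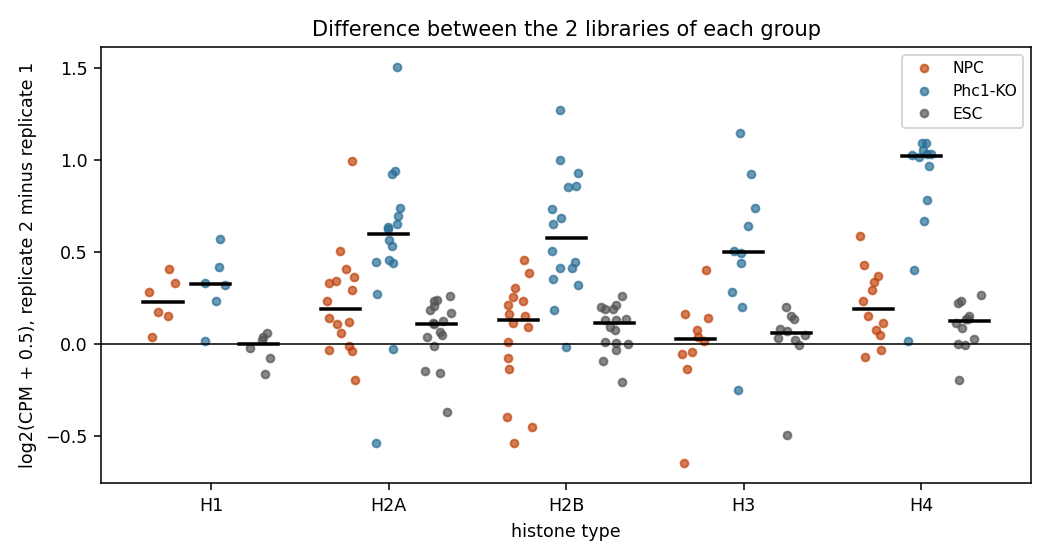
Replicate 2 minus replicate 1 on the log2(CPM + 0.5) scale (y axis) for each tested gene, by histone type (x axis) and group. Black lines are medians. Phc1-KO points lie mostly above 0, with the highest median, 1.02, for H4, and ESC points lie closest to 0.

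The direction against ESC depended on the library. Without Phc1-KO 1, the median log2 fold change of the histone cluster genes was 0.52, against -0.02 for all genes tested. Without Phc1-KO 2 it was -0.14, against -0.01 for all genes tested. Each of these fits leaves 1 library in the Phc1-KO group, so the numbers of calls are not compared between them. Phc1-KO 1 had 1.08 reads outside genes per read inside one and Phc1-KO 2 had 0.661, against 0.839 and 0.851 in ESC. Genes of S phase and DNA replication also differed within the pair, with a sum of 6223 and 7668 CPM in Phc1-KO 1 and 2, and 24 of 33 were higher in Phc1-KO 2 (median 0.29). In the NPC pair 5 of 33 were higher in NPC 2 (median -0.24), while 45 of 60 histone cluster genes were (median 0.15). The part of reads outside genes or of S phase genes in the histone values was not tested.

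The other genes that make, carry and process histones are given from lists, each read beside the same background. In NPC 30.4% of all tested genes were higher and 30.9% lower, and in Phc1-KO 4.91% were higher and 5.75% lower. The S phase, processing and chaperone lists had at most 1 Phc1-KO call in each direction, too few to set them apart from those shares. The S phase and replication list held 33 genes, all tested. In NPC 27 were lower and 0 higher, with a median of -1.28, and the list summed to 2432 and 1966 CPM in NPC, against 6004 and 5943 CPM in ESC. Orc1, of the origin recognition complex, fell by 2.80, Mcm10, a replication initiation factor, by 2.45 and Mcm2, a subunit of the replicative helicase, by 2.39. Pcna, the sliding clamp, fell by 1.52. The S phase genes and the histone cluster genes were thus lower in the same libraries, and the part of one in the other was not tested. In the Phc1-KO group, 1 of 33 rose, Ccne1, a cyclin of the entry into S phase, at 242 and 280.3 CPM in Phc1-KO, against 159 and 150.0 CPM in ESC (log2 fold change 0.76 (SE 0.13)), and 0 fell.

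Of 25 genes tested for histone transcription and RNA processing, 19 were lower in NPC and 2 higher, with a median of -0.66. Slbp, the stem-loop binding protein, was at 65.2 and 67.4 CPM in NPC, against 156 and 156 CPM in ESC, a log2 fold change of -1.23 (SE 0.17). Zfp473, a U7 ribonucleoprotein-associated zinc finger protein, was at 2.96 and 4.16 CPM in NPC, against 51.4 and 53.8 CPM in ESC and fell by 3.88. Npat, which activates histone gene transcription in S phase, fell by 0.53 and Casp8ap2, the FLASH protein of the processing complex, by 0.60. Lsm11, a U7 subunit, was at 27.4 and 25.1 CPM in NPC, against 22.1 and 21.6 CPM in ESC and did not pass. Those that rose were Ctif, a translation factor for RNAs bound by the nuclear cap-binding complex, by 2.24 and Ncbp2, of that complex, by 0.48. In the Phc1-KO group, 1 of 25 rose, Srrt, a partner of the nuclear cap-binding complex, by 0.68, and 0 fell, and Slbp was at 135 and 185 CPM in Phc1-KO, against 156 and 156 CPM in ESC.

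Of 23 histone chaperone and import genes tested, 16 were lower in NPC and 1 higher, with a median of -0.72. Nasp, a chaperone of H3 and linker histones, was at 242 and 173 CPM in NPC, against 1090.0 and 1094 CPM in ESC, a log2 fold change of -2.40 (SE 0.19). Hat1, which acetylates new H4, fell by 2.26, and Chaf1a and Chaf1b, of the CAF-1 complex that deposits histones at replication, both fell, Chaf1b by 1.48. Ubn1, of the HIRA complex that deposits histones outside replication, rose by 0.53. In the Phc1-KO group, 1 of 23 rose, Daxx, a chaperone of replacement H3, by 0.81, and 1 fell, Hjurp, the chaperone of the centromere histone, by 0.46.

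Histone genes outside the clusters, which mostly make polyadenylated RNA through the cell cycle, fell in NPC for 6 of 13 tested and rose for 1, with a median of -0.36. H2afx, whose product is phosphorylated at DNA breaks and whose RNA is known to have a stem-loop form too, was at 104 and 88.4 CPM in NPC, against 324 and 317 CPM in ESC and fell by 1.74. H2afz fell by 1.46, Cenpa, the centromere H3, by 1.53 and the linker gene H1fx by 2.51. The macroH2A gene H2afy2 rose by 1.18. The replacement H3 genes did not pass: H3f3b was at 385 and 511 CPM in NPC, against 344 and 365 CPM in ESC, and H3f3a at 26.7 and 32.9 CPM in NPC, against 39.7 and 36.8 CPM in ESC. The replacement linker gene H1f0, known from differentiated and non-dividing cells, was at 25.1 and 24.8 CPM in NPC, 13.4 and 16.6 CPM in Phc1-KO and 23.3 and 21.2 CPM in ESC and did not pass either. In Phc1-KO the macroH2A gene H2afy fell by 1.03 and H1fx by 1.14, and 0 of 13 rose.

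Markers of other cells also moved between the groups. Of all tested genes, 30.4% were higher and 30.9% lower in NPC, and 4.91% higher and 5.75% lower in Phc1-KO. Of 12 fibroblast markers, listed for the feeders, 10 were higher in NPC and 1 lower, and 8 were higher in Phc1-KO and 0 lower. They summed to 7405 and 11872 CPM in NPC, 1403 and 1235 CPM in Phc1-KO and 464 and 459 CPM in ESC, and none was at 0 in any library. Astrocyte markers were higher in NPC for 5 of 6, with sums of 1045 and 2131 CPM in NPC, 14.3 and 17.6 CPM in Phc1-KO and 68.6 and 68.5 CPM in ESC, and neuron markers were higher for 3 of 5 and lower for 1. Macrophage markers were lower for 5 of 7 tested in Phc1-KO. In NPC 4 of the 7 had under 10 counts in both libraries, so only the other 3 are counted, and they were lower. The list had sums of 6.05 and 7.99 CPM in NPC, 23.9 and 17.7 CPM in Phc1-KO and 132 and 132 CPM in ESC. Emr1 and Tyrobp were at 0 in both NPC libraries. The part of these cells in the histone values was not tested.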

How the data were processed

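RNA of 6 libraries (2 each of NPC, Phc1-KO and ESC) was analysed from the deposited tables, which hold unnormalized counts of reads per Ensembl gene. STAR, HTSeq and genome build mm9 are named in the submitters' processing notes. The sources used here give no tool version, annotation release or strand setting. The 5 closing tallies of each table (reads outside genes, ambiguous, of several places and the like) were left out of library sizes and tests, and the reads outside genes came to 0.661 to 1.09 per read in genes. Gene symbols and exons came from GENCODE M1, which named 37205 of the 37620 genes.

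Counts were tested with edgeR 4.0.16 in R 4.3.3 (quasi-likelihood F test, TMM scaling, all 6 libraries in 1 fit with 3 residual degrees of freedom). The filter filterByExpr (minimum count 10, minimum total 15) left 17489 genes, 60 of the 70 histone cluster genes among them. Benjamini-Hochberg adjustment ran over all tested genes of a comparison, and 0.05 was the threshold. SE is the log2 fold change divided by the square root of F, and 95% intervals use the same SE. Genes passing the filter only through a high group had to differ, so counts are of the 60 tested. The 10 others are given by their counts or, for Hist2h2bb, by its mean CPM. RPKM divide CPM by annotated exon length. Without molecular identifiers, the 95% counting intervals cover counting error only, and the floor of 3 counts covers it in the NPC group only. With between 15226214 and 21893821 counts per library, 1 count is under 0.1 CPM.

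Named genes were the 3 highest of each type by RPKM, the 5 largest called changes per direction and comparison with at least 4 CPM, all of Hist3 and Hist4, 7 genes picked by name as testis, linker or polyadenylated genes, and in each list the first 3 and the 3 largest changes. Other genes were named after their values were seen. The members, the 11 lists and all tests were chosen with earlier results of these data known. The fit was tested on simulated data with 200 changed genes. Changes of 1 on the log2 scale were called for 42% of such genes in NPC and 37.1% in Phc1-KO. Changes of 2 were called for 93% and 95.8%. Of all simulated calls, 7.53% were false in NPC and 7.14% in Phc1-KO. A gene not called may thus still differ by 1 on the log2 scale. Alternatives were DESeq2 1.42.0, limma-voom (limma 3.58.1), other scalings and filters, fits of 2 groups, a replicate block, the ESC pair as 1 library and each library left out. Python 3.11.15 and matplotlib 3.10.9 made the summaries and figures.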

Additional observations from a re-analysis of the deposited data

How the results depend on the processing

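The number of histone cluster genes lower in NPC stayed between 50 and 56 under every alternative tried, and the number higher at 0, apart from 1 (Hist3h2a) without NPC 1. In Phc1-KO the calls were few and moved. The number higher was 3 by DESeq2, 2 with DESeq2-style size factors, 2 when only the groups compared were fitted and 0 without a low-count filter. The number lower was 2 when only the groups compared were fitted. Both numbers also moved with the ESC pair counted as 1 library and with single libraries left out, fits that leave 1 library in a group. Summed as RPKM, the Hist3 cluster had a log2 ratio of NPC over ESC of -1.46, against -1.25 as CPM. Dividing by length gives Hist3h2a, the gene with the positive NPC value, less weight in that sum. Its mean over the 6 libraries was 4.32 CPM and 2.17 RPKM. The means were 29.5 CPM and 47.5 RPKM for Hist3h2ba, and 8.94 CPM and 19.2 RPKM for Hist3h2bb-ps. The log2 ratio of summed CPM in Phc1-KO over ESC for all 70 genes ran from -0.15 without Phc1-KO 2 to 0.49 without Phc1-KO 1. Upper-quartile scaling shifted the median of all genes in NPC to -0.11 on the log2 scale, and the histone cluster median was -1.60 there. In Phc1-KO the split of positive and negative values was 46 and 14, and 41 and 19 by total counts or upper-quartile scaling, 51 and 9 without Phc1-KO 1, and 17 and 44 without Phc1-KO 2, which turned the direction round.

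Replicate numbers were taken as labels only. Across all tested genes, differences between replicates 1 and 2 were correlated at 0.02 between NPC and ESC. The values were 0.04 between Phc1-KO and ESC and -0.02 between Phc1-KO and NPC. Among the 60 histone cluster genes, replicate 2 was higher for 45 in NPC, 56 in Phc1-KO and 46 in ESC. A correlation over all genes cannot tell whether these genes share a difference between replicates. With the replicate block 0 genes were higher and 56 lower in NPC, and 1 higher and 1 lower in Phc1-KO. With 2 libraries a group and few unique stretches in many genes, small differences between near-identical genes were not detectable.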
